A study of Mus musculus with 2 samples.

Results

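The genes of the AMPA and NMDA receptors, the ionotropic glutamate receptors that carry most fast excitatory transmission in the cortex, were followed through 2 lists of chromatin loops. The 9 genes are a given list of names, 3 for AMPA receptor subunits (Gria1, Gria2 and Gria4) and 6 for NMDA receptor subunits (Grin1, Grin2a, Grin2b, Grin2c, Grin2d and Grin3a), out of 21887 protein-coding genes with a position on GRCm38.p6, the assembly of mm10. A loop was counted at a gene end when an anchor came within 2.5 kb of either end of the gene, and in the gene body when an anchor overlapped the gene and neither anchor came within 2.5 kb of an end. These 9 genes had 46 loops in the MCAO list, out of 15592, and 38 in the sham list, out of 14779.

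The MCAO library came from mouse cerebral cortex of the operated side, in which a filament had kept the middle cerebral artery shut for 1 h, followed by 6 h of reperfusion; MCAO stands for occlusion of that artery. The sham library came from mice that had the same operation without the filament being advanced, and whose cortex was taken 6 h later. Both groups were operated under isoflurane, and tissue of the territory of the artery was frozen. The labels mention 3 cortices per group and list 1 library for each. The sources used here do not give strain, age or sex, and loop lists hold no expression values with which the tissue could be checked. With 1 sample in each group, no difference has a replicate check, and no p-value between groups is given. Hi-C joins DNA ends that lie close together in the nucleus, and a loop here is a pair of anchors whose strength is its number of PETs, the paired-end tags with an end in each anchor. The MCAO library held 40550536 PETs and the sham library 34974213, a depth ratio of 1.16. Both lists begin at 10 PETs, and contacts with fewer are not shown. In bulk tissue, a contact present in fewer cells and a contact made less often in each cell cannot be told apart. All intervals are at 95% and reflect counting error alone, since each group had 1 library. Those of PET ratios also treat each PET as a separate molecule, which nothing shows.

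AMPA receptors are tetramers of the subunits GluA1 to GluA4 and open within milliseconds of glutamate binding. GluA2, the product of Gria2, is edited at the RNA level and makes the channel nearly impermeable to calcium. NMDA receptors need the obligatory subunit of Grin1 together with GluN2 subunits (Grin2a to Grin2d) or GluN3 subunits (Grin3a). Those made of the Grin1 subunit and GluN2 subunits alone open only when glutamate, a co-agonist and depolarisation coincide, and pass calcium. Grin2b is the main GluN2 gene of the young forebrain and Grin2a gains weight as the cortex matures, Grin2c is best known from the cerebellum and Grin2d from interneurons and the embryonic brain. In ischaemia, glutamate released from depolarised cells overactivates both receptors, which is known as excitotoxicity. Several of these genes are very long, from 18.1 kb for Grin2c and 28.0 kb for Grin1 to 428 kb for Grin2a and 460 kb for Grin2b.

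The promoter windows, 250 bases before to 50 after a transcription start, are shown for the 3 genes whose window lay inside loop anchors and for Grin1, which had no loop. RefSeq sequences on GRCm38.p6 were at hand for 5 of the 9 genes. They are written 5′ to 3′ in lower case, and capitals mark the GC box, GGGCGG on either strand.
Gria2 (chr3:80802786-80803085, minus strand): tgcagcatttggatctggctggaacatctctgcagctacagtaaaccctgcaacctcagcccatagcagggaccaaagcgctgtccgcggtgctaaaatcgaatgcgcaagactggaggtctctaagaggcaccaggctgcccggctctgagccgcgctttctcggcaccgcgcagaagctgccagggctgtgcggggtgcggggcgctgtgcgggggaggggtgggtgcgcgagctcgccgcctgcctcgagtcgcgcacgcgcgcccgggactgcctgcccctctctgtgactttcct
Gria4 (chr9:4796185-4796484, minus strand): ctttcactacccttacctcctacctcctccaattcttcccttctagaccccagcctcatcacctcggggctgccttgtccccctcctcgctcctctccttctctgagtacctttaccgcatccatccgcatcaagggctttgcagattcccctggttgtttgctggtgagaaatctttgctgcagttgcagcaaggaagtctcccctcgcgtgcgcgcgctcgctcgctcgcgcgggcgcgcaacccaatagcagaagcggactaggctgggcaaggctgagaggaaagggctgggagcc
Grin2c (chr11:115267194-115267493, minus strand): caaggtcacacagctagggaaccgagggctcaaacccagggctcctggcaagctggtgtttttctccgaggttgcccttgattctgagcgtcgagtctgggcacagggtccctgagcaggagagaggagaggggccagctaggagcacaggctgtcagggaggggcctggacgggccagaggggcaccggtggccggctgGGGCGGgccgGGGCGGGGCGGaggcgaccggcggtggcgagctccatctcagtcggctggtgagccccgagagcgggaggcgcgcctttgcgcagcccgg
Grin1 (chr2:25319138-25319437, minus strand): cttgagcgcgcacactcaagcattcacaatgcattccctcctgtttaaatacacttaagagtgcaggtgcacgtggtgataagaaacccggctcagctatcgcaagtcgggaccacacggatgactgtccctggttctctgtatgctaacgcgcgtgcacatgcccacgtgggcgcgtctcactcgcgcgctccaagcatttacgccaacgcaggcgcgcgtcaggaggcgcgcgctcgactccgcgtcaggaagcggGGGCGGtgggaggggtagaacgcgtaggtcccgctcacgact
The Gria2 window lay whole inside the gene-side anchor of 5 MCAO loops and 3 sham loops, the Gria4 window in 1 MCAO loop and 2 sham loops, and the Grin2c window in 3 MCAO loops and 1 sham loop. No anchor reached the Grin1 window. No gene-side anchor held the Grin2d window whole. All 4 windows shown are rich in G and C, at 65.7% for Gria2, 59.7% for Gria4, 70.0% for Grin2c and 60.7% for Grin1, where the median of all 32544 promoter windows was 53%. 3 motifs were searched on both strands. The GC box had 3 copies in Grin2c, the last 2 overlapping by a base, and 1 in Grin1, and 35.9% of all windows hold it. The cAMP response element TGACGTCA (1.80% of all windows) stood in none of the 5 windows. The core of the motif of the insulator protein CTCF, searched as GGNGGCAG (12.6% of all windows), stood in the Grin2d window alone.

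Of the 9 genes, 8 had a loop in at least one list. Grin1 was the exception, with 0 end loops and 0 body loops in both lists. Over all 21887 protein-coding genes, 13490 had an end loop in either list and 3778 a body loop. A gene without an end loop is therefore common. At gene ends the 9 genes had 24 loops in MCAO and 16 in sham, a ratio of 1.5 (0.764 to 3.02). In gene bodies they had 22 loops in MCAO and 22 in sham, a ratio of 1.00 (0.528 to 1.89). Over all protein-coding genes the same ratios were 1.21 for gene-end pairs and 1.02 for gene-body pairs, both inside the intervals of the receptor genes. Per 1000000 PETs the receptor genes had 0.592 end loops in MCAO and 0.457 in sham, and 0.543 body loops in MCAO and 0.629 in sham.

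**Figure D1:**
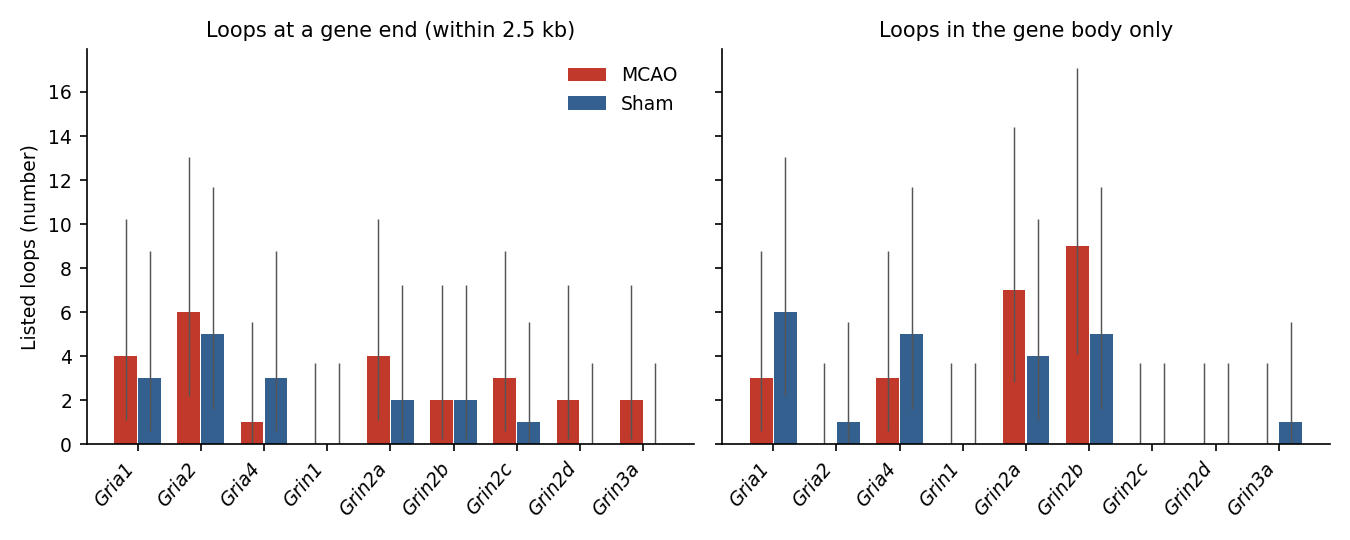
Number of listed loops at each receptor gene (vertical axis) in the MCAO list (red) and the sham list (blue), with end loops on the left and body-only loops on the right. Lines are exact Poisson 95% intervals of a count from a single library. The intervals of the libraries overlap at every gene, and in the MCAO list the bodies of Grin2b (9) and Grin2a (7) held the most body loops, while in the sham list the body of Gria1 (6) did.

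A gene was called different when its loop number, with 1 added in each list, was at least 2-fold higher or lower in MCAO. At gene ends 3 of the 8 genes with an end loop were higher in MCAO (Grin2c, Grin2d and Grin3a), where 35% of all 13490 genes with an end loop were, and 1 was lower (Gria4), where 24.8% were. Among genes of at least 100 kb these shares were 30.2% and 20.9%. In gene bodies none of the 6 genes with a body loop was higher (34.1% of all such genes) and 2 were lower, Gria2 and Grin3a (29.4%), each with 0 loops in MCAO and 1 in sham. Among genes of at least 100 kb the body shares were 24.1% and 25.3%. With 8 and 6 genes, such counts are no result about the receptor genes. Among genes with a loop of the kind, the median log2 ratio with 1 added was 0.53 for ends and -0.70 for bodies, and it was 0 for both kinds over all genes.

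More loops were listed in MCAO at NMDA receptor genes and fewer at AMPA receptor genes. Ends and bodies together, the NMDA receptor genes had 29 loops in MCAO and 15 in sham, a ratio of 1.93 (1.00 to 3.88), with 573 PETs in MCAO and 316 in sham. The AMPA receptor genes had 17 loops in MCAO and 23 in sham, a ratio of 0.739 (0.371 to 1.45), with 515 PETs in MCAO and 462 in sham. These ratios are not scaled for depth. Over all protein-coding genes the unscaled ratio was 1.21 for gene-end pairs and 1.02 for gene-body pairs, values inside both intervals. The NMDA counts include Grin2c (3 loops in MCAO and 1 in sham) and Grin2d (2 in MCAO and 0 in sham). The gene-side anchors of those loops also held other genes. With MCAO PETs scaled to the sham total, the ratio was 1.53 (0.766 to 3.16) for NMDA receptor genes and 0.609 (0.290 to 1.23) for AMPA receptor genes. With at least 15 PETs per loop, NMDA receptor genes had 17 loops in MCAO and 4 in sham, and AMPA receptor genes had 10 in MCAO and 12 in sham. Over all loops, 5693 in MCAO and 4750 in sham had 15 to 39 PETs. At least 40 PETs were carried by 588 in MCAO and 571 in sham. The split into receptor groups was not among the planned results. The difference between the receptor groups was not tested, and the loops of a gene share anchors and are not replicates. Read density at the anchors differed little, with a median of 0.638 reads per kb per 1000000 PETs in MCAO and 0.679 in sham for receptor loops, and 0.630 in MCAO and 0.641 in sham for all loops.

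**Figure D2:**
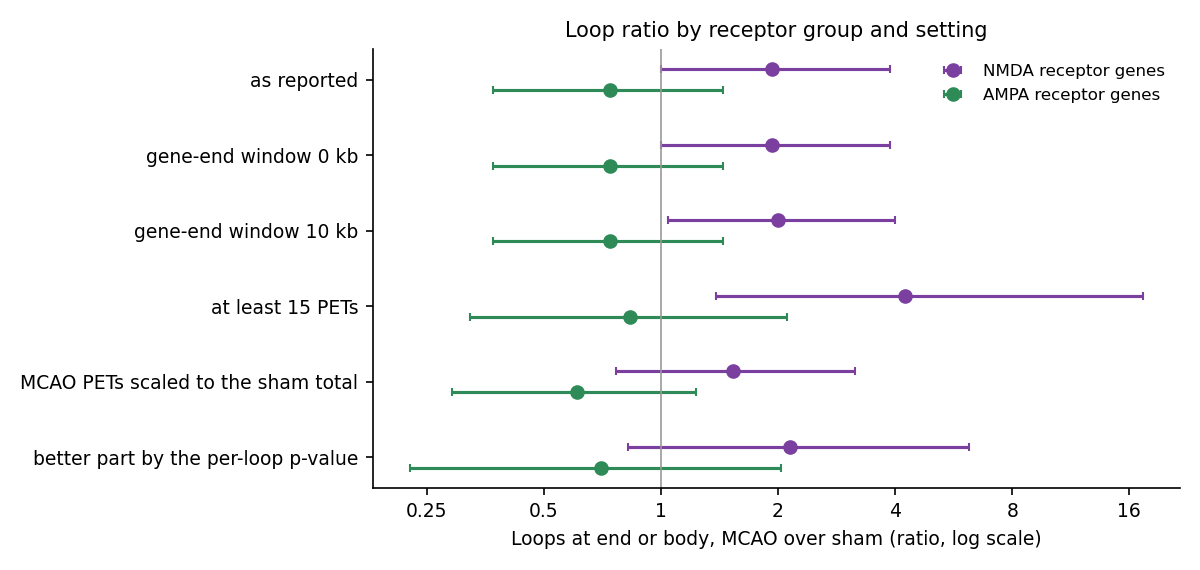
Ratio of loops in MCAO over sham (horizontal log axis) for NMDA receptor genes (purple) and AMPA receptor genes (green), end and body loops together, as reported and under 5 other settings; lines are exact binomial 95% intervals. The NMDA ratio lies above 1 in each of these settings, from 1.53 to 4.25, and the AMPA ratio below 1, from 0.609 to 0.833, and every AMPA interval includes 1, as do the NMDA intervals after scaling and among the best-ranked loops.

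The loops at these genes were long. Their median span, between anchor midpoints, was 479 kb in MCAO and 696 kb in sham, and 309 kb in MCAO and 377 kb in sham over all loops. The spans ran from 20.5 to 3356 kb in MCAO and from 44.6 to 1207 kb in sham. Over 1 Mb lay 8 of 46 loops in MCAO and 8 of 38 in sham, against 9.20% of all MCAO loops and 11.5% of all sham loops. At least 40 PETs were carried by 5 of 46 receptor loops in MCAO and 6 of 38 in sham, against 3.77% of all MCAO loops and 3.86% of all sham loops. Receptor loops also had wider anchors than all loops, and wide anchors meet a gene more easily. These comparisons with all loops were not adjusted for anchor width or gene length. Both anchors lay within the same receptor gene in 9 MCAO loops and 4 sham loops, a count that was not made over all genes.

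**Figure D3:**
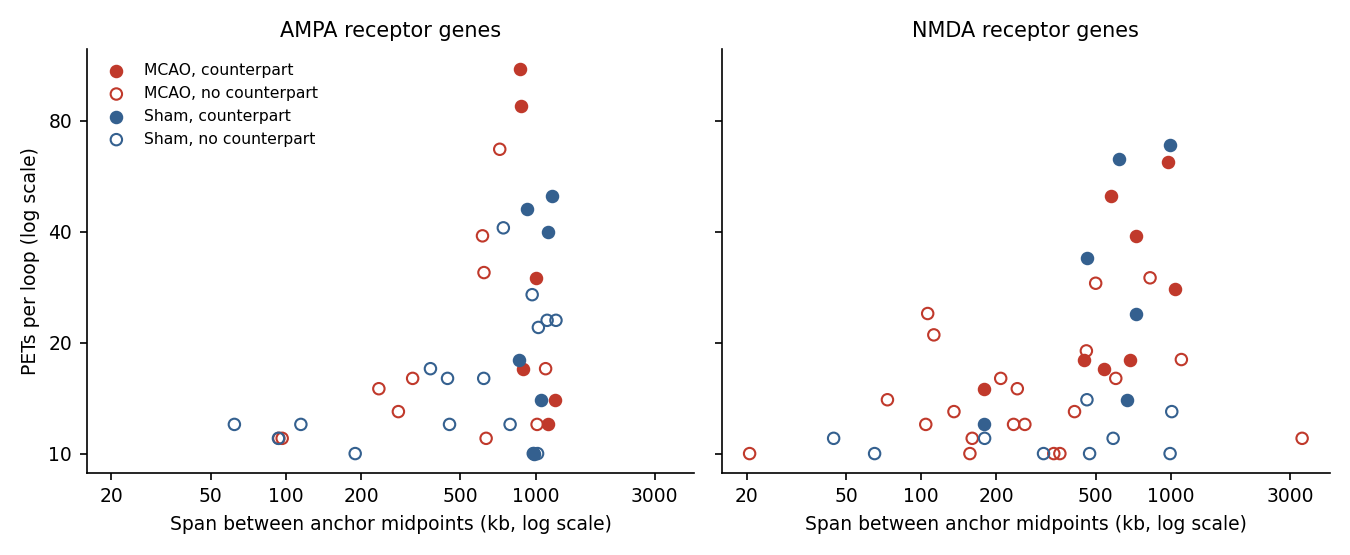
PETs per loop (vertical log axis) against span in kb (horizontal log axis) for each loop at an AMPA receptor gene (left) or an NMDA receptor gene (right), MCAO in red and sham in blue. Filled points have a counterpart in the other list and open points have none. Of the loops with at least 40 PETs, 4 of 5 in MCAO and 5 of 6 in sham are filled, and the share over all such loops was not counted.

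A counterpart was a loop of the other list with each anchor midpoint within 1 anchor width, using the wider of the anchors compared. In MCAO 14 of 46 receptor loops had one, 30.4% (17.7 to 45.8), and in sham 12 of 38, 31.6% (17.5 to 48.7), where the shares over all loops were 24.9% in MCAO and 25.6% in sham. Of loops with 10 to 14 PETs, 2 of 19 in MCAO and 4 of 22 in sham had a counterpart. Of loops with at least 40 PETs, 4 of 5 in MCAO and 5 of 6 in sham had one. The same shares by PET number were not counted over all loops, so they say nothing particular to these genes. The distance allowed grows with the anchor width, and wide anchors hold more PETs, so how much of the gradient with PETs the rule itself makes was not tested. The median anchor width was 32.8 kb in MCAO and 33.0 kb in sham for receptor loops. Over all loops it was 20.7 kb in MCAO and 24.8 kb in sham. Receptor loops were thus matched over wider distances, and the shares were not adjusted for this. There were 12 pairs at the receptor genes that were each other's nearest loop. Several loops of these pairs also met the rule with further loops, which the pair ratios leave out. Per 1000000 PETs the MCAO loop was higher in 5 pairs and lower in 7, with a log2 ratio between -2.05 and 2.79. The anchors of a pair often differed in width, and the deposited density, in PETs per kb of anchor per 1000000 PETs, differed less, by a ratio of 0.584 to 1.86.

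Gria1 (chromosome 11, 57011571 to 57330244) encodes GluA1, a subunit delivered to synapses during plasticity. It had 4 end loops and 3 body loops in MCAO, against 3 end loops and 6 body loops in sham. A region 817 kb from its lower-coordinate end, 56105083 to 56194177, took part in 3 loops of Gria1 in each list, with 132 PETs in MCAO and 74 in sham. Counting loops with any partner, the region had 9 in MCAO and 7 in sham. No protein-coding gene overlaps this region. Its neighbour on the far side is Nmur2, a neuromedin U receptor gene, 64.1 kb away. In MCAO the region met the lower end of Gria1 with 88 PETs over 872 kb, the body with 30 PETs over 1007 kb and the upper end with 14 PETs over 1195 kb. In sham it met the upper end with 50 PETs over 1159 kb and the body with 14 PETs over 1053 kb and 10 PETs over 986 kb. The upper-end loops were a pair, with 14 PETs in MCAO and 50 in sham, or 0.345 PETs per 1000000 in MCAO and 1.43 in sham. Their anchors together spanned 64.8 kb in MCAO and 157 kb in sham, and the density ratio of the pair was 0.584.

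At the lower end of Gria1 the MCAO loop of 88 PETs had as its nearest counterpart a sham loop of 11 PETs, whose gene-side anchor (56950137 to 56978589) stopped short of the gene. Sham also listed a loop of 41 PETs over 743 kb, from the lower end to 56234581 to 56302143, which lay beyond the matching distance. On the other side of the gene only sham had loops of Gria1, 2 with 26 PETs in total, reaching 57449449 to 57475388 near Fam114a2. Counting loops with any partner, that region had 1 in MCAO and 4 in sham. Loops inside Gria1 numbered 3 in MCAO, with 11 to 15 PETs, and 1 in sham, with 12 PETs. The difference in end loops was 1, and it turned to -2 with at least 15 PETs per loop and to -1 with MCAO PETs scaled to the sham total.

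Gria2 (chromosome 3, 80681450 to 80804227), the gene of the subunit that limits calcium entry, had 6 end loops in MCAO and 5 in sham, and 0 body loops in MCAO and 1 in sham. It is read from its upper-coordinate end, and 5 of the 6 MCAO end loops and 3 of the 5 sham end loops held that end. The partners lay mostly below the gene in MCAO and mostly above it in sham. Toward lower coordinates, past the promoter-distal end, Gria2 had 5 loops with 261 PETs in MCAO and 2 loops with 57 PETs in sham. Toward higher coordinates, upstream of the promoter, it had 1 loop with 12 PETs in MCAO and 4 loops with 96 PETs in sham.

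The loop with the most PETs toward lower coordinates had a partner in both lists. It joined Gria2 to the ends of Tmem144, a transmembrane protein gene, and Gask1b, with 111 PETs over 866 kb in MCAO and 46 PETs over 926 kb in sham. Per 1000000 PETs these were 2.74 in MCAO and 1.32 in sham, a ratio of 2.08 (1.46 to 3.00), while the density ratio was 1.12. The MCAO anchors together spanned 275 kb and the sham anchors 148 kb. The gene-side anchor in MCAO covered all of Gria2. Between Gask1b and Gria2, MCAO listed further loops of 67, 39, 31 and 13 PETs, none with a counterpart. The gene-side anchor of the 31-PET loop also reached Glrb, the gene next to Gria2. In the interval from Gask1b to Gria2 sham had a single loop counted at Gria2, of 11 PETs over 93.4 kb. Sham loops with other partners did reach these regions, 4 of them in 80028275 to 80113674, where MCAO had 5 in all.

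The loop from Gria2 toward higher coordinates that both lists shared ended at Ctso, the gene of the protease cathepsin O. It carried 12 PETs over 1127 kb in MCAO and 40 PETs over 1125 kb in sham, whose anchor also reached Tdo2, the gene of tryptophan 2,3-dioxygenase, and on the gene side Glrb, a glycine receptor subunit gene next to Gria2. Per 1000000 PETs the ratio was 0.259 (0.124 to 0.503), and by density 0.585. Sham listed a further body loop to Ctso with 23 PETs and 2 end loops with 23 and 10 PETs to a stretch short of Ctso, 81779669 to 81830186. These 3 had no counterpart. Each list also had another loop that met the counterpart rule and was not counted at Gria2. It had 101 PETs over 1008 kb in MCAO and 176 PETs over 898 kb in sham. The part of these loops in the Gria2 values was not tested.

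**Figure D4:**
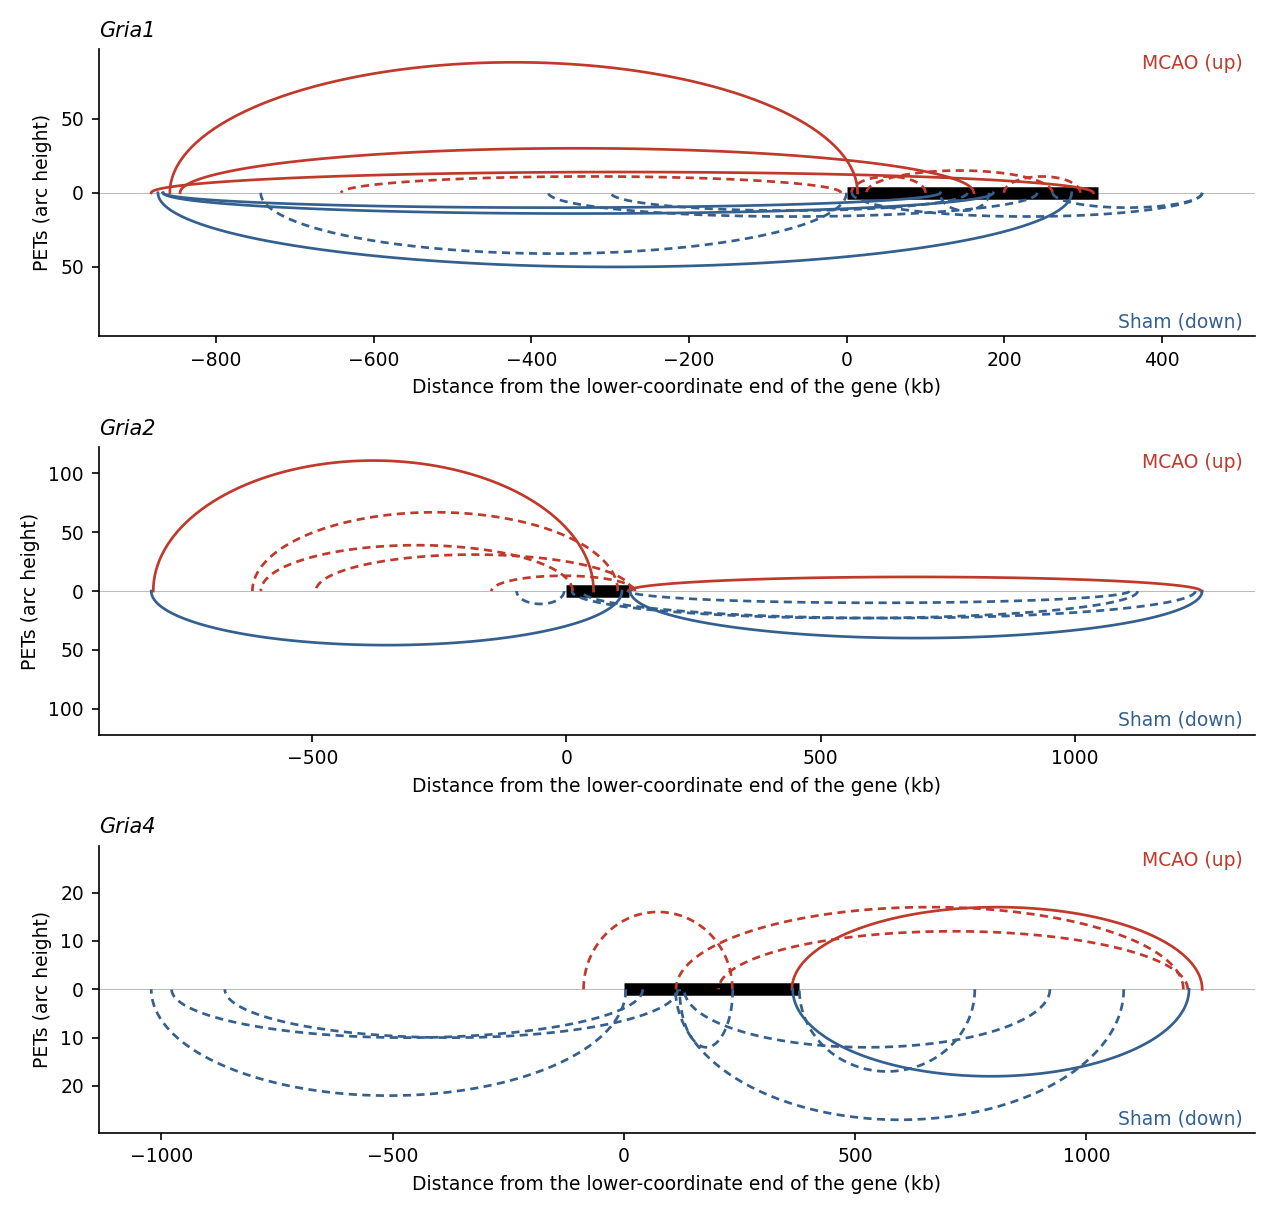
Loops at Gria1, Gria2 and Gria4, drawn as arcs between anchor midpoints, with MCAO above the line in red and sham below it in blue; the horizontal axis is the distance in kb from the lower-coordinate end of the gene (black bar) and the arc height is the number of PETs. Solid arcs have a counterpart in the other list and dashed arcs have none. At Gria2 the MCAO arcs stand mostly to the left, 5 of 6, and the sham arcs mostly to the right, 4 of 6.

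Gria4 (chromosome 9, 4417893 to 4796234) encodes GluA4, a fast subunit prominent in parvalbumin interneurons. It had 1 end loop in MCAO and 3 in sham, and 3 body loops in MCAO and 5 in sham. Its promoter end met a region free of protein-coding genes, 5608051 to 5685232 between Casp12 and Pdgfd, in both lists, with 17 PETs over 887 kb in MCAO and 18 PETs over 857 kb in sham. That pair was the only one of the gene, and its ratio per 1000000 PETs was 0.815 (0.394 to 1.68). The MCAO list joined the same region to the body in 2 more loops, with 17 and 12 PETs. The remaining MCAO loop met the ends of Aasdhppt and Kbtbd3 with 16 PETs.

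The sham loops of Gria4 reached more places. One body loop of 12 PETs ended at Casp4 and Casp12, genes of inflammatory caspases, and one end loop of 22 PETs at Alkbh8, a tRNA modification gene, and Cwf19l2. Others ended in 5152647 to 5200783 (17 PETs), in 5466927 to 5530786 (27 PETs), and inside Cwf19l2 and Gucy1a2 (10 PETs each), and 1 of 12 PETs stayed within Gria4. With at least 15 PETs the body difference of -2 turned to 1.

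Grin1 (chromosome 2, 25291177 to 25319187), the gene of the obligatory NMDA receptor subunit, is the one receptor gene here with no loop in either list. At its length of 28.0 kb it is short, and Grin2c (18.1 kb) and Grin2d (39.3 kb) had end loops only. Of the family genes outside the list of 9, Gria3 on the X chromosome had 0 loops in MCAO and 2 body loops in sham, with 10 and 13 PETs, and Grin3b had 0 in both.

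Grin2a (chromosome 16, 9567901 to 9996083) encodes GluN2A, the main GluN2 subunit of the mature cortex. It had 4 end loops and 7 body loops in MCAO, against 2 end loops and 4 body loops in sham. Every loop that left the gene, in both lists, ran toward lower coordinates, 8 in MCAO with 269 PETs and 5 in sham with 173 PETs. Most met a single stretch, 8861514 to 9055272, which began 2.59 kb past 1810013L24Rik and lay 513 kb from Grin2a. It held 6 loops of Grin2a with 227 PETs in MCAO and 4 with 159 PETs in sham. Counting loops with any partner, the stretch had 11 in MCAO and 6 in sham. No protein-coding gene of the reference table lies in it, while lncRNA genes such as Gm30310 do.

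The contacts of that stretch with the most PETs were found in both lists. To the upper end of Grin2a it had 62 PETs over 970 kb in MCAO and 69 PETs over 995 kb in sham, a ratio per 1000000 PETs of 0.775 (0.541 to 1.11). To the lower end it had 50 PETs over 574 kb in MCAO and 63 PETs over 619 kb in sham, a ratio of 0.685 (0.463 to 1.01). Both intervals include 1. A body contact had 39 PETs in MCAO and 14 in sham, a ratio of 2.40 (1.28 to 4.79), though its density ratio was 0.996. MCAO further listed upper-end loops of 28 and 18 PETs to neighbouring anchors in the stretch. The 28-PET loop had the same sham counterpart as the 62-PET loop.

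Loops of Grin2a without a counterpart had at most 30 PETs. MCAO listed a body loop of 30 PETs to the same stretch and 2 body loops of 29 and 13 PETs to 9208516 to 9304559, and sham listed body loops of 13 and 14 PETs. Inside the gene MCAO had 3 loops with 10 to 14 PETs and sham 1 with 11 PETs. With at least 15 PETs per loop, Grin2a had 3 body loops in MCAO and 0 in sham.

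Grin2b (chromosome 6, 135713221 to 136173615) encodes GluN2B, which predominates early in forebrain development. It had 2 end loops in each list, and 9 body loops in MCAO against 5 in sham. A contact with narrow anchors joined its upper end to a place 179 kb further up, with 15 PETs in MCAO and 12 in sham. Its anchors together spanned 21.7 kb in MCAO and 23.4 kb in sham, the midpoints were displaced by 3.33 and 2.57 kb, and the ratio per 1000000 PETs was 1.08 (0.471 to 2.52).

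The place belongs to a region, 136340028 to 136388763, between Eif4a3l1 and E330021D16Rik. Over both lists it met Grin2b in 6 loops, 4 with 66 PETs in MCAO and 2 with 46 PETs in sham. One pair ran from the body with 18 PETs over 450 kb in MCAO and 34 PETs over 460 kb in sham. Its ratio per 1000000 PETs was 0.457 (0.243 to 0.832), and its density ratio ran the other way, at 1.56. The same sham loop was also the counterpart of an MCAO body loop of 17 PETs over 539 kb, which this ratio leaves out. The gene-side anchor spanned 20.6 kb in MCAO and 90.1 kb in sham.

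On the lower side a stretch 10.3 kb past Emp1, 135393424 to 135452412, met Grin2b with 18 PETs over 684 kb and 16 PETs over 602 kb in MCAO, and with 24 PETs over 727 kb in sham. The sham anchor reached the upper end of the gene, and the MCAO anchors lay in the body. Loops within Grin2b numbered 3 in MCAO, with 12 to 21 PETs, and 1 in sham, with 11 PETs. The 21-PET loop, over 112 kb, was the strongest loop inside any of the 9 genes and had no counterpart. With at least 15 PETs, Grin2b had 6 body loops in MCAO and 1 in sham.

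**Figure D5:**
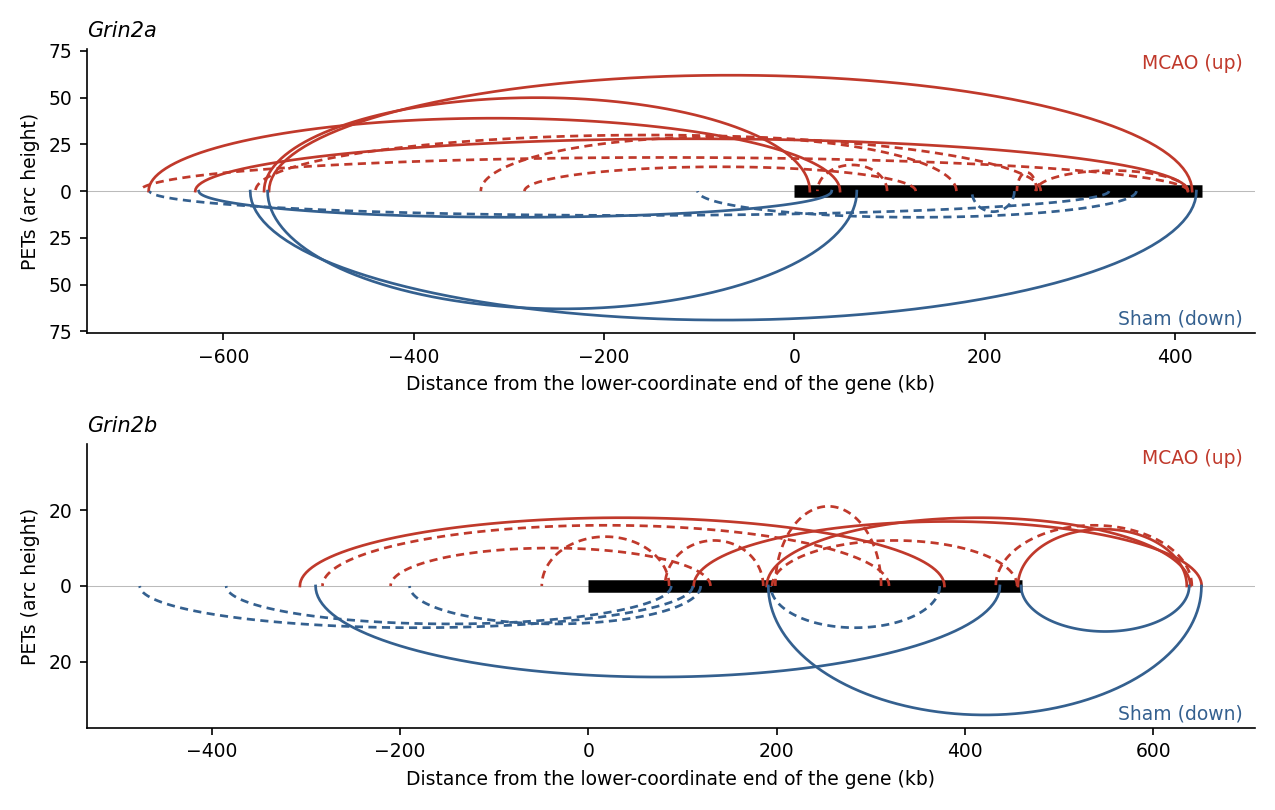
Loops at Grin2a and Grin2b as arcs between anchor midpoints, MCAO above in red and sham below in blue; the horizontal axis is the distance in kb from the lower-coordinate end of the gene (black bar) and the arc height is the number of PETs, with solid arcs for loops that have a counterpart. At Grin2a the tall arcs of both lists share their left foot, with 62 and 50 PETs in MCAO and 69 and 63 PETs in sham.

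The shorter NMDA receptor genes lie among other genes and had loops with few PETs. Grin2c (chromosome 11, 115249169 to 115267297) had 3 end loops in MCAO and 1 in sham. Its promoter-end anchor in MCAO met Rab37, a small GTPase gene, and Slc9a3r1, a scaffold gene, with 24 PETs over 106 kb. 2 further MCAO loops met Kif19a, Btbd17 and Gpr142 (19 PETs, 459 kb) and Cd300a, the gene of an inhibitory immune receptor (10 PETs, 359 kb). The sham loop had 10 PETs over 65.1 kb and ended in Tmem104. The gene-side anchors also held Fdxr, the ferredoxin reductase gene, and in MCAO Fads6, so the contacts cannot be given to Grin2c alone. No loop of Grin2c had a counterpart.

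Grin2d (chromosome 7, 45831883 to 45871194) had 2 end loops in MCAO and 0 in sham. One, with 12 PETs over 234 kb, met Hsd17b14 and Bcat2, a mitochondrial aminotransferase gene, from an anchor that also held Lmtk3, Cyth2, Kcnj14 and Grwd1. The other, with 10 PETs over 157 kb, met Abcc6 and Nomo1 from an anchor shared with Kdelr1. Grin3a (chromosome 4, 49661611 to 49846023), whose subunit lowers calcium permeability of NMDA receptors, had 2 end loops in MCAO and 0 in sham, and 0 body loops in MCAO and 1 in sham. Its MCAO loops had 15 PETs over 243 kb, to a region without protein-coding genes, and 11 PETs over 3356 kb, to Nipsnap3a and Nipsnap3b, the longest span at any receptor gene. The gene-side anchor of the 11-PET loop also held an end of Rnf20, so that contact cannot be given to Grin3a alone. The sham body loop had 10 PETs over 993 kb, from an anchor at Ppp3r2, a calcineurin subunit gene inside Grin3a. With at least 15 PETs no loop of Grin2d was left, and Grin3a kept 1 in MCAO and 0 in sham.

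Across the 9 genes, loops to the outside met 40 separate regions, formed by joining overlapping partner anchors of a gene. Of these, 7 were met in both lists, 15 in MCAO only and 18 in sham only. The same count was not made over all genes, and most loops of either list had no counterpart, so it says nothing particular to these genes. The 6 regions with at least 3 loops of their gene, at Gria1, Gria2, Gria4, Grin2a and Grin2b, were each met in both lists and took 19 of 37 outside loops in MCAO and 13 of 34 in sham. A region with 3 loops has more chances to be met in both lists. Of the 6, 5 hold no protein-coding gene; the exception is Ctso with Tdo2. The partner anchor of end loops reached an end of another gene in 8 of 24 MCAO loops, 33.3% (15.6 to 55.3), and 3 of 16 sham loops, 18.8% (4.05 to 45.6). Of the 24 MCAO end loops, 2 lay inside their gene and could not reach another gene. Among all loops with a gene-end anchor, both anchors held a gene end in 34.4% in MCAO and 35.0% in sham. That count takes each loop once, while the receptor shares start from the anchor of a given gene. Counted from each gene-end anchor, the shares over all loops would be higher, so the 2 kinds of share cannot be compared directly.

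Genes of proteins that bind these receptors were counted in the same way. For the number of genes with a loop in each list, the base is all 21887 protein-coding genes. Of these, 13490 had an end loop and 3778 a body loop. Auxiliary subunits and extracellular partners had 22 end loops in MCAO and 18 in sham over 12 of 20 genes. Of the 12, 5 were called higher in MCAO (35% of all genes with an end loop) and 4 lower (24.8%). Shisa9 had 4 end loops in MCAO and 0 in sham and Gsg1l 3 in MCAO and 0 in sham, both for auxiliary AMPA receptor subunits, while the stargazin relative Cacng3 had 1 in MCAO and 3 in sham. Neto1, a partner of kainate and NMDA receptors, had the most, 5 in MCAO and 7 in sham. Their bodies had 9 loops in MCAO and 6 in sham over 8 genes, with 5 called higher (34.1% of all genes with a body loop) and 1 lower (29.4%). The genes called had at most 2 body loops in a list, as Cnih3 with 2 in MCAO and 0 in sham.

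Scaffolds and kinases had 30 end loops in MCAO and 21 in sham over 16 of 20 genes, with 5 called higher (35% of all genes), 2 lower (24.8%) and 9 neither. Pick1, Camk2b and Akap5, which bind or regulate the receptors at the postsynaptic site, each had 3 in MCAO and 1 in sham, and Dlg4, the gene of PSD-95, had 0 in MCAO and 1 in sham. In their bodies stood 45 loops in MCAO and 37 in sham over 11 genes, with 5 called higher (34.1% of all genes) and 0 lower (29.4%). Dlgap4 had 5 in MCAO and 1 in sham, and Dlg2 had the most, 11 in MCAO and 14 in sham. Genes of co-agonist supply, RNA editing and tyrosine kinases had 12 end loops in MCAO and 9 in sham, with 2 of 7 called higher (35% of all genes) and 1 lower (24.8%). Adarb1, whose enzyme edits the Gria2 transcript, had 2 end loops in MCAO and 0 in sham, and the tyrosine kinase gene Fyn 3 in each. Their bodies had 8 loops in each list, with 1 of 4 genes called higher (34.1% of all genes) and 1 lower (29.4%). Counts on so few genes set none of these lists apart. The median log2 ratio of end loops was 0.66 for auxiliary subunits and 0 for both other lists, where all genes gave 0. Kainate and delta receptor genes had 13 end loops in each list and 9 body loops in MCAO against 28 in sham. Metabotropic receptor genes had 22 end loops in MCAO and 16 in sham, and 25 body loops in MCAO and 31 in sham. Whether the AMPA and NMDA receptor genes differ from these families was not tested.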

How the data were processed

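Hi-C libraries of cortex from the operated side were made with 1 library per group, and groups were taken from the sample titles. HiC-Pro, Bowtie2 and build mm10 are named in the submitters' processing notes, without versions; no source used here names the loop caller. PETs in a loop and reads in an anchor are raw counts, deposited unscaled. The authors' density, a signal value, equals PETs divided by the summed anchor width in kb and by the library's PETs in units of 1000000. Solving it for the library total gave the same depth at each loop of a list. The enrichment ratio and the p-values are the authors' deposited values per loop. The per-loop p-value was used only to rank loops within a list, and the ratio was not used.

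Genes were placed with a RefSeq table of GRCm38.p6, and end and body loops, counterparts and spans were computed with Python 3.11.15, pandas 2.3.3, numpy 2.4.6 and SciPy 1.17.1. Strand came from the promoter table, which holds 5 of the 9 genes; exons and introns were not analysed here. Intervals are exact (Poisson, binomial and Clopper-Pearson). The counting and matching code was checked on simulated loops with known positions, for which the right answer was set in advance. That check can find coding errors only and does not measure how well loops were matched in these lists. All 9 genes, the genes of the chosen lists that pass the 2-fold rule or have the most loops, and the genes at partner anchors are named, with some list members left unnamed and 1 not reported here. Members and lists were chosen with earlier results of these data known. Alternatives covered the window, a minimum of 15 PETs, depth, the better part of each list and the counterpart rule. Mutual nearest counterparts were added after seeing the data, and the split into AMPA and NMDA receptor genes was not among the planned results.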

Additional observations from a re-analysis of the deposited data

How the results depend on the processing

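Each group had 1 library, so no setting gives a replicate check. The ratio of gene-end loops stayed between 1.00 and 1.59 in all settings. It was 1.5 as reported, 1.19 with MCAO PETs scaled to the sham total and 1.00 among the loops ranked best by the per-loop p-value. The ratio of body loops was 1.00 as reported and 3.25 (1.00 to 13.7) with at least 15 PETs, from 13 loops in MCAO and 4 in sham. With at least 15 PETs 2 genes were called lower in MCAO at their ends, against 1 as reported, and among the best-ranked loops 0 were called higher, against 3. The share of MCAO loops with a counterpart was 15.2% within 0.5 anchor width, against 30.4% as reported, and the share of sham loops was 50% within 2 anchor widths, against 31.6%. The median span in MCAO over sham was 0.689 as reported and 0.659 to 0.824 otherwise. Of 90 single-gene differences under other settings, 20 had no loop in either list and could not change. Of the other 70, 46 kept direction and side of the 2-fold rule, 3 kept the side but went to or from 0, 8 lost the call, 7 gained it and 6 turned direction. The 10-PET minimum of the lists limits every count, since 9 of 46 receptor loops in MCAO and 13 of 38 in sham had 10 or 11 PETs. Leaving out Grin2b, the gene with the most loops, gave 1.57 for ends and 0.765 for bodies.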
